A study of Mus musculus with 30 samples.

Results

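The genes described are 10 components of the basement membrane, given as a list of names: the type IV collagen chains Col4a1 and Col4a2, the laminin chains Lama1, Lama5, Lamb1 and Lamc1, the nidogens Nid1 and Nid2, the heparan sulfate proteoglycan perlecan (Hspg2) and Sparc. All 10 were found among the 29555 genes of both deposited gene tables, and all 10 passed the filter on low counts in each comparison. In the tables of accessible chromatin, 126 of 158917 peaks in the table of epiblast stem cells (EpiSCs) and definitive endoderm (DE), and 130 of 181059 in the table of EpiSCs alone, overlapped a member or lay within 10 kb of it.

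A basement membrane is the thin sheet of extracellular matrix on which epithelia rest. Laminins are trimers of an alpha, a beta and a gamma chain that polymerise at the cell surface and bind integrins and dystroglycan. Collagen IV forms a second, cross-linked network, in its most common form from chains of Col4a1 and Col4a2, and nidogens and perlecan bind both networks. In the early mouse embryo the epiblast lies on such a sheet, and definitive endoderm forms when epiblast-derived cells pass through the primitive streak and enter the layer on its other side. Sparc is a secreted protein that binds collagen IV.

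The study profiled RNA and open chromatin (ATAC-seq) of EpiSCs, which are lines of primed pluripotent cells, and of DE made from them. EpiSCs of C57BL/6 (B6; 5 RNA and 4 ATAC libraries), PWK/PhJ (PWK; 3 and 2), DBA/2J (DBA; 1 and 1) and B6.129 F1 (B6129F1; 3 RNA libraries) were used, and B6 DE had 4 libraries in each assay. PWK DE was not analysed here. The medium of all EpiSCs held Fgf2, Activin A and the Wnt inhibitor NVP-TNKS656, over a layer of feeder cells. DE was induced with CHIR99201 and Activin A for 16 h and then with Activin A and LDN193189 for 24 h, 46 h being given as the whole, and DE cells were kept by magnetic sorting for CXCR4, so a level of Cxcr4 is no finding. EpiSCs were lifted from the feeders with collagenase and were not sorted, which is a limit for secreted matrix genes that fibroblasts also make. The labels do not say whether the numbered replicates are separate lines or cultures, so p-values measure the spread between these libraries.

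RNA libraries held 22829536 to 66563933 counts and ATAC libraries 3751526 to 9571127. The labels held for Pou5f1 and Sox17. Pou5f1 lay between 982 and 1331 CPM (counts scaled to a library's size) in B6 EpiSCs and between 2.46 and 37.8 in DE. Sox17 lay between 0.63 and 9.52 CPM in B6 EpiSCs and between 1128 and 1462 in DE. Of 7 primed pluripotency markers, Pou5f1 among them, 5 were lower in DE, Otx2 was higher and 1 did not pass (edgeR adjusted p under 0.05). Over all genes tested, 30.6% were lower and 31.5% higher. The 7 markers summed to 2668 to 3981 CPM in B6 EpiSCs and 1540 to 2267 in DE. The summed CPM of 16 fibroblast markers lay between 136 and 3441 in B6 EpiSCs, between 117 and 384 in DE, between 2850 and 3929 in PWK and between 234 and 324 in B6129F1. Col1a1, the fibroblast collagen gene among them, ranged from 8.00 to 728 CPM over the 5 B6 EpiSC libraries, and no marker of the 16 was at 0 in every library of a group. In bulk samples, fewer cells of a type and less RNA per cell cannot be told apart.

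Col4a1 and Col4a2 lie head to head on chromosome 8 and are read in opposite directions. Their RefSeq starts (GRCm38.p6, the assembly with mm10 coordinates) are 21 bases apart and the annotated genes overlap by 85 bases, so that 1 open region serves as the start of both. The bases from the Col4a2 start to the Col4a1 start, chr8:11312805-11312826, are shown because both collagen IV chains are read from them, and capitals mark a GGGCGG match.
Col4a2: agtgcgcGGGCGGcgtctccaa
The bases upstream of Nid1 (chr13:13437352-13437601, plus strand) are shown because the peak over them was lower in PWK than in B6, and those upstream of Hspg2 (chr4:137468553-137468750, plus strand) because the peak there rose in DE while the transcript fell. Lamb1 (chr12:31265043-31265145, plus strand) is shown as the only member whose transcript rose in DE. Capitals mark a match, on either strand, to a searched motif; the motifs are named after the sequences.
Nid1: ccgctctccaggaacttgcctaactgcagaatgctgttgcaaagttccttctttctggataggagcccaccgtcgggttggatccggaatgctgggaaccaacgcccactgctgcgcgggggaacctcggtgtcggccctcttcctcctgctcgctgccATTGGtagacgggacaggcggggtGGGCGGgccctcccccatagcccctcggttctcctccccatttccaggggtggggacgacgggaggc
Hspg2: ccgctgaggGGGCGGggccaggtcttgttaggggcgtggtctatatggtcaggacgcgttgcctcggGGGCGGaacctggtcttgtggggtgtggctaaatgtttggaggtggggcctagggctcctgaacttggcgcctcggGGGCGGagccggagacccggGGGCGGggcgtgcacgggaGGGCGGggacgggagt
Lamb1: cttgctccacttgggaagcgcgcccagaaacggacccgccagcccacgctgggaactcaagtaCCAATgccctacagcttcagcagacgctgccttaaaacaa
RefSeq promoter windows (250 bases before to 50 after the start) were at hand for 7 members, and there were none for Lama1, Lamc1 and Nid2. GGGCGG, the GC box, was found in 6 of the 7, against 35.7% of 32851 windows of the same length. The Col4a1 and Col4a2 windows overlap, and the only Col4a1 match is the one marked above for Col4a2, so that site counts for both. CCAAT was found in 4 of 7, against 37.4%. AGATAA and AACAAT, core letters of GATA and SOX motifs, were in 0 of 7, against 11.2% and 10.7%. The Hspg2 window held 5 GC boxes and no CCAAT, Nid1 held 1 of each, and the Sparc window held none of the 4 motifs. A match is a description of these letters.

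In DE against B6 EpiSCs, Lamb1 rose, and Hspg2, Nid1, Nid2, Lama5 and Lamc1 fell, in edgeR's quasi-likelihood test at an adjusted p under 0.05 (Benjamini-Hochberg over 14085 genes). Of all genes tested, 62% passed this threshold, 31.5% higher and 30.6% lower, so 6 of 10 members is a share near the background. The members' median log2 change was -0.64 and that of all genes -0.01. The groups did not overlap for 3 members (Lamb1, Nid1 and Hspg2), against 55.6% of all genes. The change was therefore unequal within the set, from a 17.6-fold fall for perlecan to a rise for 1 laminin chain.

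**Figure D1:**
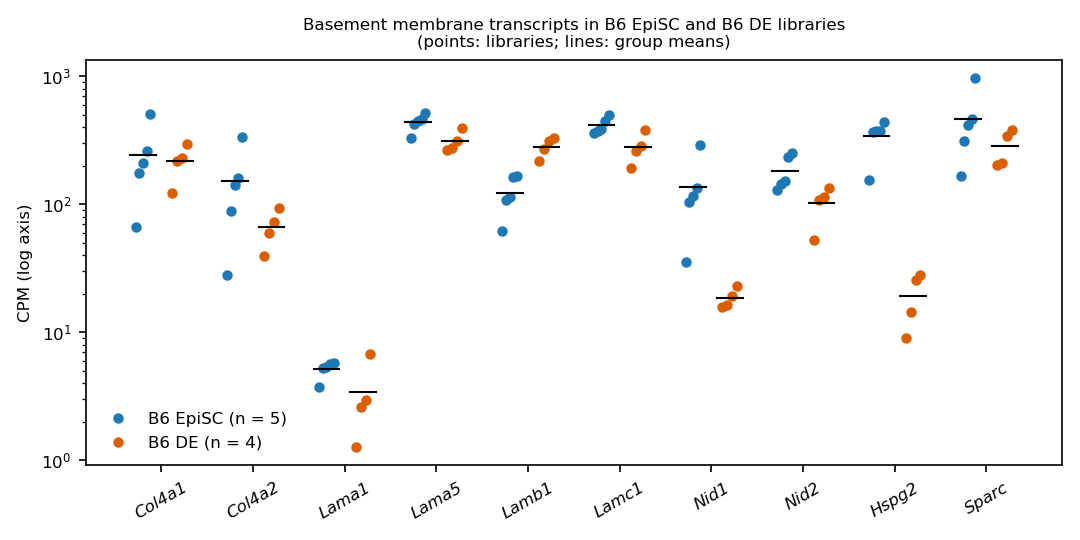
CPM (log axis) of each member in 5 B6 EpiSC libraries (blue) and 4 B6 DE libraries (orange), 1 point per library, with lines at the group means. Hspg2 lies at 9.04 to 27.9 CPM in DE and 153 to 436 in EpiSCs, Lamb1 is the only member whose DE libraries all lie above the EpiSC libraries, and the Col4a1, Col4a2 and Sparc libraries of the groups overlap.

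Perlecan, which carries heparan sulfate chains and binds laminin, nidogen and growth factors, moved most. Hspg2 was at 14.5, 9.04, 25.5 and 27.9 CPM in DE replicates 2, 44, 4 and 51 and at 436, 368, 371, 372 and 153 in EpiSC replicates 51, 44, 2, 4 and 1. Every DE library lay below every EpiSC library. Its log2 change, -4.14 (SE 0.42; edgeR adjusted p 1.98e-05), was a 17.6-fold fall.

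The nidogens link laminin to collagen IV, and the 2 genes differed in size of change. Nid1 was at 19.1, 15.6, 16.5 and 22.8 CPM in the DE libraries, in the same order, and at 291, 133, 116, 103 and 35.1 in the EpiSC libraries, with no overlap. Its log2 change was -2.87 (SE 0.50, edgeR adjusted p 0.000605). Nid2 was at 52.2, 108, 135 and 114 CPM in DE and at 150, 232, 143, 253 and 129 in EpiSCs, and the groups overlapped. Nid2 fell by 0.83 in log2 units, with an SE of 0.30 and an edgeR adjusted p of 0.0325.

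Laminin chains went different ways. Lamb1, the beta chain of laminin-111 and laminin-511, was at 310, 270, 326 and 216 CPM in DE and at 163, 61.5, 165, 108 and 114 in EpiSCs. All DE libraries lay above all EpiSC libraries, and the log2 change was 1.2 (SE 0.27, edgeR adjusted p 0.00275). Its gamma chain partner Lamc1 was at 192, 285, 381 and 260 CPM in DE and at 362, 443, 375, 497 and 389 in EpiSCs. Lamc1 fell by 0.56 (SE 0.20, edgeR adjusted p 0.0274), with an overlap of the groups through DE replicate 4.

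Lama5, the alpha chain of laminin-511, was at 266, 310, 392 and 277 CPM in DE and at 464, 423, 510, 446 and 330 in EpiSCs. It fell by 0.48 (SE 0.17, edgeR adjusted p 0.0275), and the lowest EpiSC library lay within the DE range. Lama1, the alpha chain of laminin-111, was at 1.27, 2.97, 6.80 and 2.62 CPM in DE and at 5.32, 5.66, 3.73, 5.23 and 5.73 in EpiSCs, and its change of -0.58 had an SE of 0.45 and an edgeR adjusted p of 0.279. DE replicate 4 held the highest Lama1 level of all 9 libraries, and without it the change was -1.15 with an edgeR adjusted p of 0.0283.

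The collagen IV chains and Sparc did not pass the test. Col4a1 was at 123, 217, 229 and 293 CPM in DE and at 505, 260, 211, 176 and 66.4 in EpiSCs, and its change of -0.18 had an SE of 0.47 and an edgeR adjusted p of 0.760. Col4a2 was at 39.2, 72.5, 59.8 and 93.9 CPM in DE and at 335, 161, 140, 88.7 and 27.9 in EpiSCs (-1.18, SE 0.56, edgeR adjusted p 0.0904). The DE libraries of both genes lay inside the EpiSC range. Sparc was at 381, 339, 204 and 212 CPM in DE and at 960, 461, 412, 313 and 165 in EpiSCs (-0.70, SE 0.43, edgeR adjusted p 0.180), and here too the DE values fell inside the EpiSC range. Col4a2 passed in DESeq2 (adjusted p 0.0278) and without EpiSC replicate 1 (-1.45, edgeR adjusted p 0.0128). In DE replicate 51, genes on chromosome 8, where both chains lie, had a shift of 0.51 log2 units. The other DE libraries had shifts of -0.20 to -0.14. These shifts are read only as a gap between replicate 51 and the other DE libraries, not as a loss in the others. Without DE replicate 51, Col4a1 changed by -0.36 and Col4a2 by -1.40 (edgeR adjusted p 0.579 and 0.0893).

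EpiSC libraries differed among themselves more in some members than in others. The highest library was 12.0 times the lowest for Col4a2, 8.29 times for Nid1, 7.6 times for Col4a1 and 5.81 times for Sparc, against 1.37 to 2.84 times for the other 6 members. For these 4 genes the order of the libraries was replicate 51, 44, 2, 4 and 1 from high to low, and that is also the order of the summed fibroblast markers (3441, 1459, 1457, 610 and 136 CPM). The part of this in the changes was not tested beyond a fit with the log2 marker sum as a covariate, added after the data were seen, in which few libraries carry information since the sum also differs between the groups. In that fit Hspg2 had a log2 change of -3.44, Nid1 of -1.26, Lamc1 of -0.76 and Lamb1 of 1.40, and these 4 kept their calls (edgeR adjusted p 0.000231, 0.00534, 0.0404 and 0.0114).

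Lama5 and Nid2 lost their calls in the covariate fit (edgeR adjusted p 0.300 and 0.100), and Col4a1, Col4a2 and Sparc turned to 1.32, 0.82 and 0.64 (edgeR adjusted p 0.0610, 0.246 and 0.104). EpiSC replicate 1 was the only EpiSC library whose marker sum lay within the DE range. Next to that library, every DE library was higher in Col4a1, Col4a2, Sparc and Lamb1 and lower in Hspg2, Nid1 and Lamc1. That is a description of 1 library, with no test.

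Single libraries also decided several calls. With 1 library left out, 1 member was higher in each of the 9 fits and 2 to 6 were lower, Nid1 and Hspg2 in all of them. Lama5 lost its call without DE replicate 2, 44 or 51 or EpiSC replicate 51, 2 or 4, with edgeR adjusted p between 0.0504 and 0.0761. Nid2 lost it without DE replicate 2, 44 or 51 or EpiSC replicate 44 or 4, and Lamc1 without DE replicate 44 or 51 or EpiSC replicate 44 or 4.

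A ratio of counts within a library is free of library size, and gene length cancels when it is compared between libraries. For 4 pairs of partner genes in 3 comparisons, 12 ratios were compared by two-sided exact permutation tests over libraries. The Col4a1 to Col4a2 ratio was 3.26 in DE and 1.77 in B6 EpiSCs (geometric means), a log2 difference of 0.88 with no overlap. Lamb1 to Lamc1 was 1.02 in DE and 0.28 in EpiSCs, a log2 difference of 1.86 with no overlap. Both had the smallest p that 4 against 5 libraries allow (exact p 0.0159, adjusted over the 12 to 0.0714), so neither passed after adjustment. Within B6 EpiSCs the log2 Col4a1 to Col4a2 ratio was 0.59, 0.696, 0.588, 0.985 and 1.25 in replicates 51, 44, 2, 4 and 1. It was highest in replicates 4 and 1, which had the lowest fibroblast marker sums. The unlogged ratio was 1.51 in PWK and 2.55 in B6129F1 (geometric means), where those sums were high and low. The highest B6129F1 library was at 2.82 and the lowest DE library at 2.997. The part of the fibroblast markers in this ratio was not tested.

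The Nid1 to Nid2 ratio was 0.19 in DE and 0.63 in EpiSCs (exact p 0.0317, adjusted 0.0714), and Lama1 to Lama5 differed by -0.34 on the log2 scale (exact p 0.444, adjusted 0.485). In PWK the Nid1 to Nid2 ratio was 2.51 and in B6129F1 0.17, each without overlap with B6 (exact p 0.0357 each, the smallest that 3 against 5 libraries allow, adjusted 0.0714). The difference from B6 was 1.99 on the log2 scale in PWK and -1.90 in B6129F1, in the order of the fibroblast marker sums, and the part of those markers was not tested. Lamb1 to Lamc1 was 0.53 in PWK, a log2 difference of 0.92 from B6 (exact p 0.0357, adjusted 0.0714). None of the 12 ratios passed after adjustment, and 6 had an unadjusted exact p under 0.05.

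**Figure D2:**
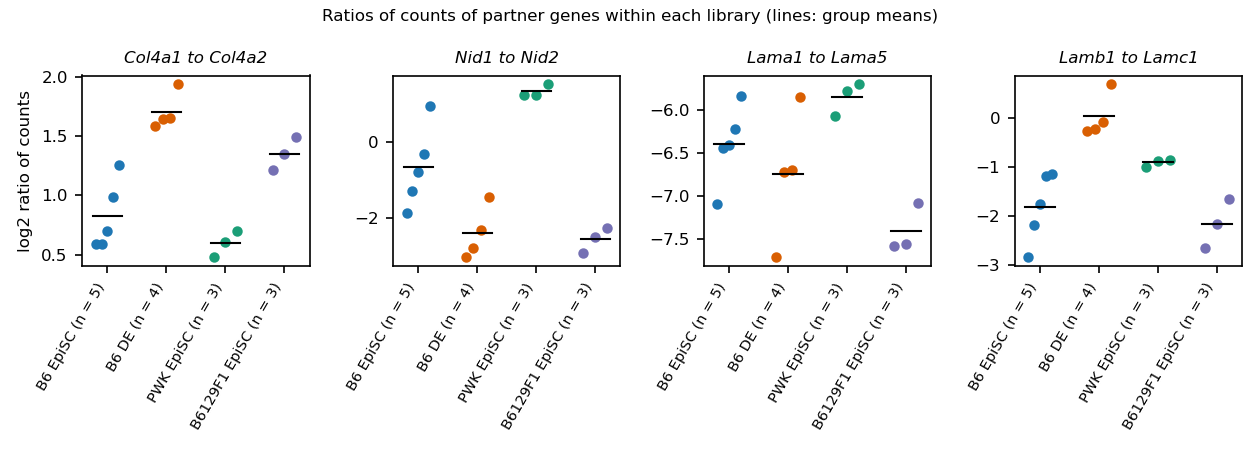
Log2 ratio of counts of partner genes within each library for B6 EpiSCs (n = 5), B6 DE (n = 4), PWK EpiSCs (n = 3) and B6129F1 EpiSCs (n = 3), with lines at the group means. All 4 DE libraries lie above all B6 EpiSC libraries for Col4a1 to Col4a2 and for Lamb1 to Lamc1, and the group mean of Nid1 to Nid2 is highest in PWK and lowest in B6129F1.

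Genes around the members were taken from lists of other components, of biosynthesis, of receptors and of proteases. Of 25 other basement membrane components, 22 were tested in DE against EpiSCs, 4 rose, 13 fell and 5 did not pass (median log2 change -1.49). Of all genes tested, 31.5% rose and 30.6% fell. Fras1 and Frem2, which act together at the epithelial side of embryonic basement membranes, fell by 3.53 and 2.25 (edgeR adjusted p 6.2e-06 and 4.36e-05), and Col18a1, a collagen with heparan sulfate chains, fell by 2.36. Fibulin-1 (Fbln1) rose by 0.66, Smoc2, a relative of Sparc, by 1.96, and Lamb3, a beta chain of laminin-332, by 3.33. None of these 6 genes had overlapping groups, a property by which they were named. Lamb3 stood at 19.8 to 35.7 CPM in DE and at 0.26 to 5.81 in EpiSCs.

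Of 15 genes that modify, fold, transport or cross-link collagen, 7 rose, 4 fell and 4 did not pass (median 0.02). The shares over all genes were 31.5% higher and 30.6% lower. P4hb, the beta subunit of collagen prolyl 4-hydroxylase and protein disulfide isomerase, rose from 576 CPM ± 41.5 (SD, n = 5) to 1733 CPM ± 207 (SD, n = 4), a log2 change of 1.59. Ppib (1.05) and Crtap (0.94), which act together in prolyl 3-hydroxylation, rose too. The lysyl hydroxylase Plod2 fell by 1.98 and the collagen export factor Mia3 by 0.52.

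All 13 receptors on the list were tested, 0 rose, 9 fell and 4 did not pass (median -1.27), against 31.5% higher and 30.6% lower over all genes. The laminin-binding integrin alpha chains Itga3 and Itga6 fell by 5.20 and 3.45, and the collagen-binding Itga1 fell by 4.04. Itga3 went from 208 CPM ± 112 (SD, n = 5) to 5.66 CPM ± 0.84 (SD, n = 4). Their shared beta chain Itgb1 was at 448 CPM in DE and 558 in EpiSCs and did not pass (log2 change -0.32, edgeR adjusted p 0.259); it was named after its values were seen. Of 10 proteases and inhibitors, 2 rose, 3 fell and 5 did not pass (median -0.99), with the same shares over all genes. The fibroblast markers fell in 13 of 16 cases, and their part in these lists was not tested.

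DE and EpiSC libraries were also read for other cell types that make much basement membrane. Parietal endoderm lays down Reichert's membrane, and of its 4 markers Pth1r had 0 counts in every B6 EpiSC library and 48.8 CPM ± 24.2 (SD, n = 4) in DE, at least 449-fold higher against a floor of 3 counts per library. Srgn rose as well, Thbd fell, and Plat did not pass. The 4 markers summed to 55.9 to 102 CPM in DE and 10.4 to 60.4 in EpiSCs. Of 9 visceral endoderm markers, which summed to 3.75 to 19.2 CPM in DE, 5 were tested and Apoa1 and Amn rose. All 8 DE markers rose, against 31.5% of all genes tested. Cxcr4, by which the DE cells were sorted, is among them, so its rise is no finding. Whether such cells had a part in the members' levels was not tested.

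Over the 9 B6 libraries, the 5 genes most like Col4a1 among 9805 expressed genes were Tgfbr2, Pear1, Bmp1, Rara and Sdk1, with Pearson's r from 0.90 to 0.94. Those most like Lama1 were Ubtd2, Gpr107, Fut8, Inpp5f and Mbd5 (r from 0.94 to 0.95). These are correlations of log2(CPM + 1) that share libraries and depth, given as a description.

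Near the members, chromatin changed in both directions. Of the 126 peaks, 92 passed the filter, 35 rose and 18 fell in DE (edgeR quasi-likelihood test, adjusted p under 0.05). That is 57.6% together, against 57.6% of 113870 peaks in all (32.6% higher and 25% lower), so the share equals the background. The groups did not overlap at 51 of the 92, against 53.8% of all peaks. The median log2 change was 0.19 near the members and -0.01 over all peaks. When libraries were scaled by their totals, the median of all peaks was -0.22, so small changes depend on the scaling. Over all peaks, 37108 rose and 28496 fell, against 33320 and 36674 with that scaling and 33183 and 32959 with chromosome 8 left out; near the members 30 rose and 23 fell with that scaling. The number of peaks that rose and fell was 5 and 1 for Col4a1, 8 and 5 for Col4a2, 6 and 3 for Lamc1, 4 and 3 for Hspg2, 4 and 1 for Nid2, 3 and 1 for Nid1, 3 and 0 for Lamb1, 2 and 4 for Sparc, 2 and 0 for Lama5 and 1 and 0 for Lama1. Peaks at the collagen pair count for both of its genes. Beside the start peak and the peak with the lowest p of each member, the peaks given below were chosen after their values were seen.

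Of all tested peaks near the members, the one with the lowest p lay within Col4a1, 4053 bases from its start (chromosome 8, 11308622 to 11308924). It was at 18.1, 11.2, 12.0 and 22.8 CPM in DE replicates 2, 4, 44 and 51 and at 0.16, 0.10, 0 and 0.31 CPM in EpiSC replicates 1, 4, 44 and 51, no more than 2 counts in any EpiSC library. DE was at least 31.9-fold higher against a floor of 3 counts per library. A second peak 3386 bases from the start (11309330 to 11309551) rose by 5.24, and one 4653 bases into Col4a2 (11317320 to 11317596) by 2.64. The peak over both starts (11312798 to 11312879) was at 2.86 to 7.50 CPM in DE and 1.53 to 3.52 in EpiSCs and did not pass (0.69, SE 0.42, edgeR adjusted p 0.168).

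Along the pair as a whole, 22 of 32 peaks were tested, 10 rose and 6 fell. Of all 113870 peaks tested, 32.6% rose and 25% fell. Chromosome 8 peaks had a shift of 0.47 in DE replicate 51 and of -0.17 to -0.14 in the other DE libraries, again read only as a gap. Without DE replicate 51, 24 peaks along the pair were tested, 10 rose and 9 fell. Of all 127301 peaks in that fit, 39198 rose and 34350 fell. Of the 6 peaks of the pair that fell with all libraries, 1 lay within Col4a1, 4 within Col4a2 and 1 beyond its end. The one with the largest fall, at 11411856 to 11412061, was at least 6.99-fold lower in DE. The transcripts of both genes did not pass the test over the same groups.

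**Figure D3:**
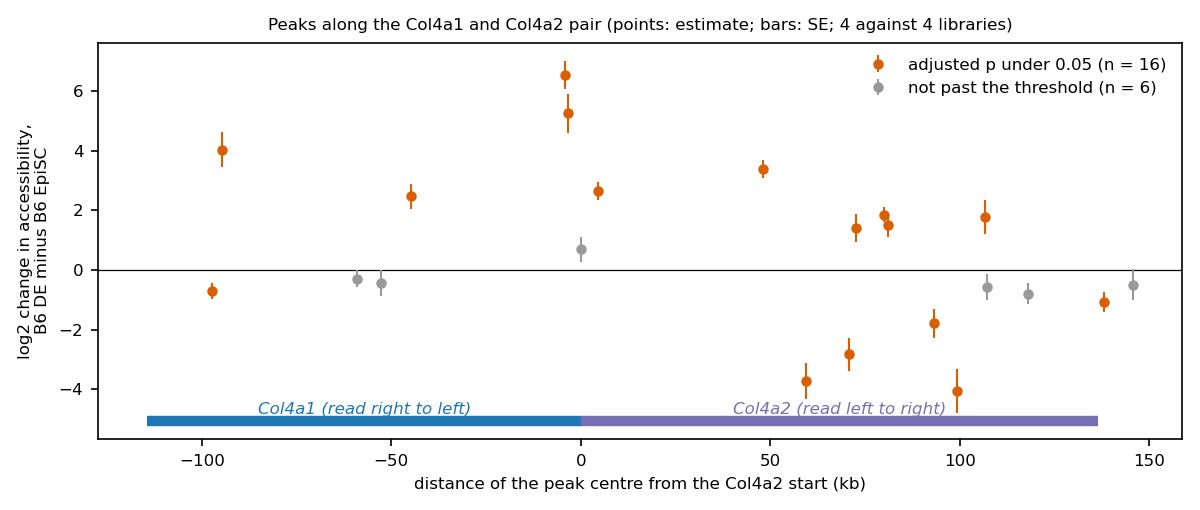
Log2 change in accessibility (DE minus EpiSC, 4 against 4 libraries, bars are SE) of the 22 tested peaks along Col4a1 and Col4a2, by the distance in kb of the peak centre from the Col4a2 start. Orange marks an adjusted p under 0.05, and 2 of the rising peaks lie within 5 kb of the shared start on the Col4a1 side; one of them was under the floor of 3 counts in every EpiSC library, so its plotted height is a fitted value and the rise is given only as at least 31.9-fold.

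At the starts of the members (for Lama1, Lamc1 and Nid2, at an end of the gene), 9 distinct peaks were named, 2 rose, 1 fell and 6 did not pass. Over all peaks tested, 32.6% rose and 25% fell. The Hspg2 start peak (chromosome 4, 137468408 to 137468698, over the upstream bases printed above) was at 14.4, 16.5, 13.7 and 20.2 CPM in DE replicates 2, 4, 44 and 51 and at 7.52, 5.01, 6.12 and 9.76 CPM in EpiSC replicates 1, 4, 44 and 51. It rose by 1.18 (SE 0.25, edgeR adjusted p 0.000411) with no overlap, while the Hspg2 transcript fell by 4.14. A peak within the gene at 137501063 to 137501236 fell by 3.30, and one beyond its end, at 137579804 to 137579959, rose by 3.36.

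The peak at an end of Lama1 (chromosome 17, 67696923 to 67697332) rose by 1.11 (SE 0.16, edgeR adjusted p 4.4e-06), from 17.8 CPM ± 1.79 (SD, n = 4) to 38.6 CPM ± 4.36 (SD, n = 4), while the transcript did not pass. The Sparc start peak (chromosome 11, 55419724 to 55420039) fell by 0.47 (edgeR adjusted p 0.0280), and a peak 8107 bases outside Sparc (55428187 to 55428584) fell by 2.04. Sparc was thus lower at its start peak, with a transcript change of -0.70 that did not pass. The Lamb1 start peak (chromosome 12, 31264896 to 31265401) changed by 0.04 and turned sign under several settings, while a peak 8310 bases outside the gene (31256576 to 31256836), which also lies near the lncRNA Gm32899, rose by 2.49.

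At Nid1, the start peak (chromosome 13, 13437428 to 13437695) changed by -0.56 (edgeR adjusted p 0.106) with no overlap between the groups, and a peak 9246 bases into the gene (13446797 to 13446900) was at least 6.14-fold higher in DE, where the transcript fell. At Nid2 the peak at an end of the gene, called its start peak in this report, changed by -0.21 (edgeR adjusted p 0.263). An intragenic Nid2 peak (chromosome 14, 19776442 to 19776897) rose by 2.94, from 3.36 CPM ± 1.5 (SD, n = 4) to 27.2 CPM ± 2.43 (SD, n = 4). Both nidogen transcripts fell. Both start peaks passed, as lower in DE, in 3 other fits. Without EpiSC replicate 51 they were at -0.75 and -0.41 (edgeR adjusted p 0.0388 and 0.0332), with total library size at -0.78 and -0.43 (0.0250 and 0.0218), and with chromosome 8 left out at -0.71 and -0.37 (0.0403 and 0.0372). The Lamc1 peak with most counts at an end of the gene (chromosome 1, 153333026 to 153333517) changed by 0.15 and that of Lama5 (chromosome 2, 180225846 to 180226260), which the lncRNA Gm52542 overlaps, by 0.19, and neither passed. A peak within Lamc1 (153316386 to 153316610) had 1 to 3 counts per DE library and was at least 18.0-fold lower in DE, and one 974 bases into Lama5 (180224808 to 180224962) rose by 1.93.

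**Figure D4:**
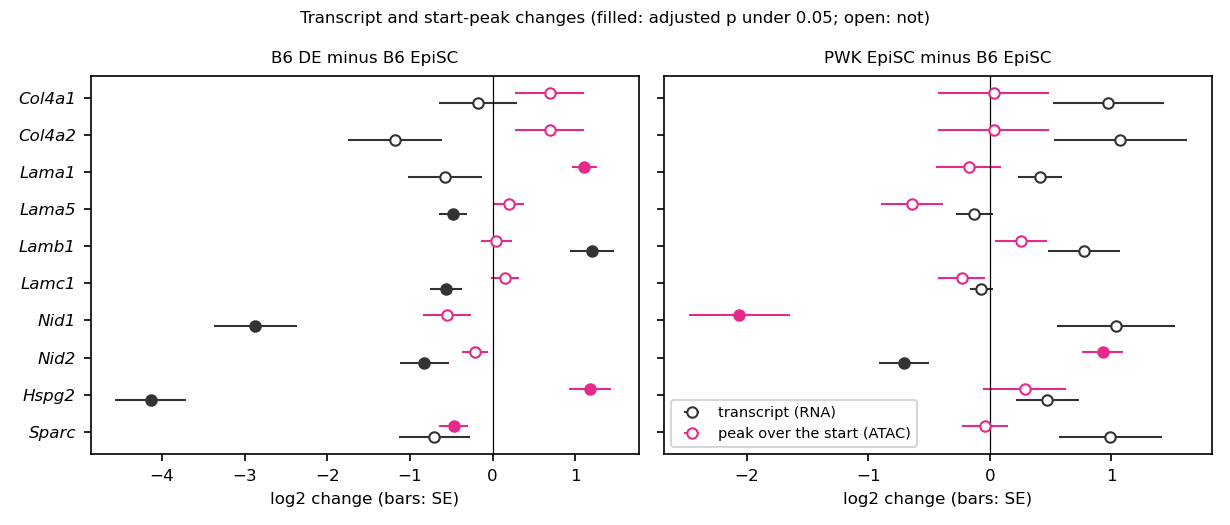
Log2 change of each member's transcript (black) and of the peak over its start (pink), with SE bars, for B6 DE minus B6 EpiSC and PWK minus B6 EpiSC. For Lama1, Lamc1 and Nid2 the peak is one at an end of the gene. Filled points have an adjusted p under 0.05; Hspg2 has a fall of 4.14 in the transcript and a rise of 1.18 in the peak, and Nid2 in PWK has a fall of 0.70 and a rise of 0.93.

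PWK and B6 EpiSCs were set against each other to see how the genes differ between genetic backgrounds. Of the 10 members only Nid2 was called, against 26.5% of 14822 genes (12% higher and 14.5% lower), and 3 did not overlap with B6, against 32.1%. Of the 16 fibroblast markers only Twist1 was called there (lower), with a median log2 change over the list of 1.25. Nid2 was at 114, 110 and 122 CPM in the PWK libraries BioRep698, BioRep695 and one with no number and at 156, 240, 149, 258 and 134 in B6 replicates 51, 44, 2, 4 and 1, without overlap. It fell by 0.70 (SE 0.21, edgeR adjusted p 0.0284). The call was lost without B6 replicate 44, without any 1 of the 3 PWK libraries (edgeR adjusted p up to 0.0999), with only these 2 groups in the fit (0.0604) and with the marker covariate (0.0657).

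Col4a1 was at 490, 470 and 531 CPM in PWK and at 525, 270, 220, 179 and 69.3 in B6, and Sparc at 913, 970 and 983 against 999, 478, 430, 319 and 172. For both, all PWK libraries lay at the level of B6 replicate 51 and above the other B6 libraries. The log2 changes were 0.98 for Col4a1, 1.08 for Col4a2, 1.04 for Nid1 and 0.99 for Sparc (edgeR adjusted p 0.140, 0.174, 0.137 and 0.109). Without B6 replicate 51, 5 members were higher, these 4 and Lamb1, at 1.43, 1.61, 1.53, 1.45 and 0.90 in the order Col4a1, Col4a2, Nid1, Sparc, Lamb1. Of all genes in that fit, 2428 of 14762 were higher. With the marker sum as a covariate the 4 were at 0.15, 0.08, 0.17 and 0.25 (edgeR adjusted p 0.539, 0.618, 0.561 and 0.314).

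Lamb1 (217 CPM ± 18.0, SD, n = 3, against 127 CPM ± 45.2, SD, n = 5) and Lama1 did not overlap with B6 and did not pass in edgeR (adjusted p 0.0763 and 0.117), and Lamb1 passed in DESeq2 (adjusted p 0.0224). Hspg2, Lama5 and Lamc1 changed by 0.48, -0.13 and -0.07 and did not pass.

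B6129F1 EpiSCs, with fibroblast markers near the low end of the B6 range, shared the B6 controls with the PWK comparison. Lama1 was called, against 2.84% of all genes (1.34% higher, 1.5% lower, and 14.5% without overlap), at 3.02, 3.17 and 2.39 CPM in replicates 4 and 9 and the unnumbered library and at 5.54, 5.87, 3.89, 5.33 and 5.98 in B6, without overlap. It fell by 0.89 (SE 0.19, edgeR adjusted p 0.0400). The call was lost without any 1 of 9 of the 11 libraries in the fit, without the filter (0.0575), with only these 2 groups in the fit (0.123) and with the marker covariate (0.0674).

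Col4a1 (75.0, 78.2 and 70.2 CPM), Col4a2 (32.3, 27.7 and 27.6) and Nid1 (50.4, 30.2 and 39.4) lay near or below the lowest B6 library, with log2 changes of -1.76, -2.42 and -1.81 that did not pass in edgeR (adjusted p 0.0803, 0.0640 and 0.0859) and did in DESeq2 (0.00794, 0.00115 and 0.0129). Without B6 replicate 1, 6 members were lower, Lama1, Col4a1, Col4a2, Nid1, Hspg2 and Sparc, against 951 of 14748 genes in that fit. With the marker covariate the 3 were at -0.43, -0.67 and -0.45, and of these Col4a2 passed (edgeR adjusted p 0.164, 0.0306 and 0.209). The DBA library, with no replicate and a marker sum of 1927 CPM, lay within the B6 range for 8 of 10 members, and none differed by over 1 on the log2 scale from the B6 mean, against 8.75% of 12916 genes. Lama1 lay above that range (8.25 CPM) and Nid2 below it (133 CPM).

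**Figure D5:**
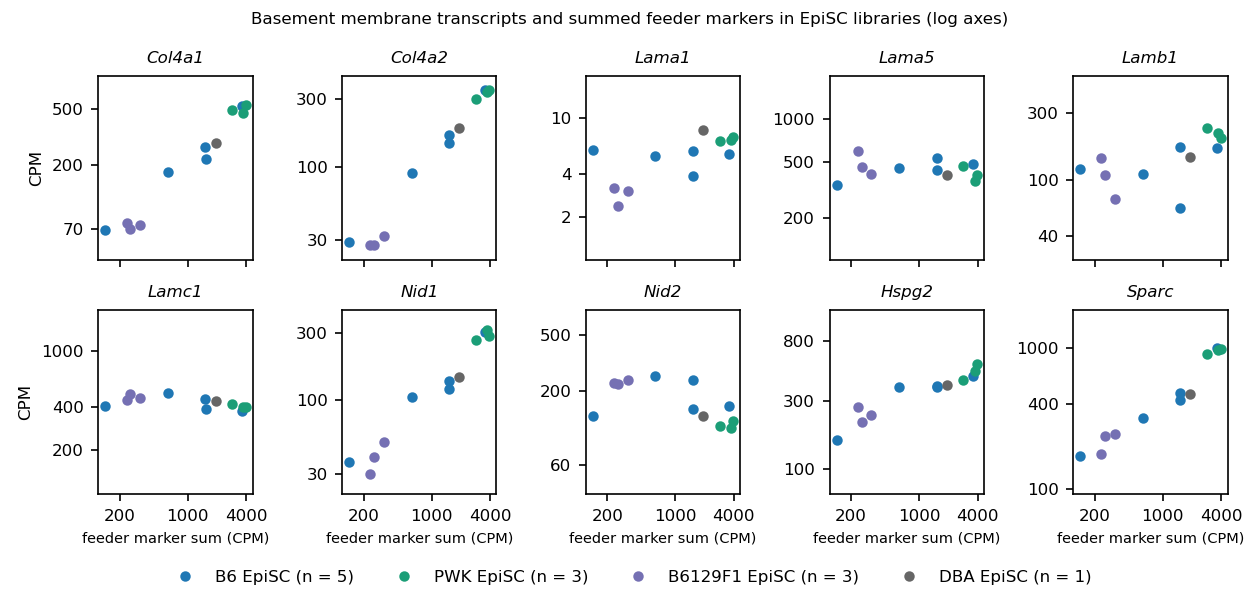
CPM of each member against the summed CPM of 16 fibroblast markers in the 12 EpiSC libraries (log axes, 1 point per library, colour by strain). Col4a1, Col4a2, Nid1 and Sparc lie low in B6129F1 and B6 replicate 1 and high in PWK and B6 replicate 51, Lamc1 stays between 377 and 506 CPM, and Nid2 is lowest in PWK.

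Of the 22 other components tested in PWK, 5 rose and 1 fell, against 12% and 14.5% of all genes. The fibroblast marker sum was also high there (2850 to 3929 CPM, against 142 to 3581 in B6 and 234 to 324 in B6129F1), and its part in the lists was not tested. Among them Col4a6 rose by 1.33, Fras1 by 1.05, Frem2 by 1.04 and Vwa1 by 1.09, and Smoc1 fell by 1.13. Among receptors, Itga3 fell by 2.58, Ddr1 by 0.53 and Dag1 by 0.23, and Sdc1 rose by 0.41. Colgalt1, which glycosylates collagen, and Qsox1, an oxidase that acts in laminin assembly, rose by 0.45 and 1.02, and Mmp2 and Timp3 by 1.63 and 1.12. In B6129F1, Smoc2 fell by 1.41 and the laminin-binding netrin Ntn4 by 1.49.

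In PWK chromatin, of 105 tested peaks near members, 5 were higher and 1 lower, 5.71%, against 5.11% of 137667 peaks (1.42% higher, 3.68% lower, and 26.3% without overlap), a share near the background. The 6 peaks lay at Nid1 or Nid2. The Nid1 start peak (13437428 to 13437757) was at 2.16 and 1.59 CPM in PWK and at 9.54, 6.81, 6.67 and 8.05 in B6 replicates 1, 4, 44 and 51, and at 4.04 in the DBA library. It fell by 2.06 (SE 0.42, edgeR adjusted p 0.00870) without overlap, a call lost without the unnumbered PWK library (0.0697). A peak within Nid1 (13480226 to 13480365) rose by 3.06.

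The Nid2 start peak (19750985 to 19751380) was at 72.9 and 56.1 CPM in PWK and at 28.6, 35.1, 36.4 and 35.1 in B6, and at 35.1 in DBA. It rose by 0.93 (SE 0.17, edgeR adjusted p 0.00487), while the Nid2 transcript was lower in PWK, and lost its call without PWK BioRep698 (0.0829). Within Nid2, a peak at 19754974 to 19755059 had 44 and 39 counts in PWK, no more than 1 in any B6 library and 3 in DBA, at least 12.2-fold higher in PWK than in B6. Peaks at 19766393 to 19766657 and 19750443 to 19750634 rose by 2.01 and 1.19. Reads of PWK were counted in peaks of a B6-based assembly. The part of sequence differences between the strains was not tested, for the peaks or for the PWK transcript levels.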

How the data were processed

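RNA-seq (poly(A), stranded, paired) and ATAC-seq counts per gene and per peak were used as the authors deposited them. The submitters' processing notes name fastp, Bowtie2, Salmon, featureCounts, MACS2, DESeq2 and mm10, without roles, and which tool made which table is not given in the sources used here. Counts were fitted in edgeR 4.0.16 (limma 3.58.1, R 4.3.3) with TMM scaling, filterByExpr and the robust quasi-likelihood test, Benjamini-Hochberg over all features. PWK and B6129F1 shared 1 fit with B6. The procedure was also run on simulated counts. These had the same spread for every feature and no differences in fibroblast markers between libraries, so they cannot check calls where such differences occur. CPM are TMM-scaled. Exact permutation tests, joins and sequences used Python 3.11.15 (pandas 2.3.3, numpy 2.4.6, scipy 1.17.1).

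Peaks were joined to a member within the gene or 10 kb of either end. A start peak overlapped 250 bases before to 50 after a RefSeq start, or, for Lama1, Lamc1 and Nid2, lay within 1 kb of either gene end. Alternatives were DESeq2 1.42.0, other scalings, filters, windows, left-out libraries and a replicate block. Named genes were all members, up to 3 genes per list and direction with the largest called change in DE without overlap (mean log2 CPM at least 3), and those called between strains. The members and lists were chosen with earlier results of these data known. A symbol matched 29270 of 29555 gene IDs. Not used here were 17 columns of the EpiSC peak table, and PWK DE, whose 3 samples matched no column. Columns with a strain but no number were taken as a replicate of that group. One gene called between strains is not reported here. SEs of log2 changes come from the edgeR fit and include the spread between libraries, while floors cover counting error only.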

Additional observations from a re-analysis of the deposited data

Results flagged for a closer look

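In 5 of 62 groups of 4 or 5 libraries, 1 library stood apart from the rest by Dixon's criterion, which chance meets in about 1 group in 20. Lama1 was at 3.73 CPM in B6 EpiSC replicate 2, against 5.23 to 5.73 in the other 4. Hspg2 was at 153 CPM in B6 EpiSC replicate 1, against 368 to 436 in the others, and that library also had the lowest fibroblast marker sum; the part of those cells was not tested. The Lamc1 end peak (153333026 to 153333517) was at 31.6 CPM in B6 DE replicate 4, against 24.1 to 25.1. The Nid2 start peak (19751044 to 19751340) was at 21.0 CPM in B6 DE replicate 51, against 29.0 to 29.9. The Hspg2 peak at 137579804 to 137579959 was at 1.53 CPM in B6 EpiSC replicate 44, against 0.31 to 0.40.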

How the results depend on the processing

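In DE, the number of lower members was 2 to 6 with 1 library left out and 3 with the marker covariate. In PWK, 0 to 5 members were higher and 0 to 1 lower with 1 library left out, 1 was higher in DESeq2, and 0 were lower in the 2-group and covariate fits. In B6129F1, 0 to 6 were lower with 1 library left out, 4 in DESeq2 and 0 without a filter or in the 2-group fit. Calls over all genes moved as well. With 1 library left out, 3827 to 4586 genes were lower in DE, 1126 to 2428 higher in PWK and 0 to 951 lower in B6129F1. Of peaks in DE, 28 to 38 rose and 19 to 23 fell with 1 library left out; 13 rose and 6 fell with at least 10 counts in every library, 6 and 3 within 2 kb of an end, 63 and 33 within 50 kb, and 20 rose and 15 fell off chromosome 8, which leaves out the collagen pair. In PWK 1 to 5 were higher and 0 to 3 lower with 1 library left out, 2 were higher with at least 10 counts or within 2 kb, and 8 were higher and 6 lower within 50 kb. The causes were not tested, apart from fewer or more peaks entering by construction.

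Several small changes turned sign. In DE, Col4a1 ranged from -0.42 to 0.27 with 1 library left out (0.027 without DE replicate 2, 0.27 without EpiSC replicate 51) and was at 1.32 with the covariate, where Col4a2 was at 0.82 and Sparc at 0.64. With the covariate Hspg2 was at -0.043 in PWK and 0.092 in B6129F1, and Sparc at 0.020 in B6129F1; Lama5 there ranged from -0.051 to 0.23 with 1 library left out, the lowest without B6129F1 replicate 9. The Lamb1 start peak was at -0.0033 with RLE scaling, -0.16 with total library size, -0.0032 in DESeq2, -0.14 with the replicate block, -0.15 in the same libraries unblocked and -0.10 off chromosome 8, and ranged from -0.16 to 0.051 with 1 library left out. The Lama5 start peak was at -0.024 with total library size and ranged from -0.058 to 0.23 with 1 library left out, the lowest without EpiSC replicate 1. The Lamc1 end peak was at -0.077 with total library size and -0.0072 off chromosome 8, and ranged from -0.080 to 0.18 with 1 library left out. In PWK the Sparc start peak was at 0.049 with total library size and 0.0032 with at least 10 counts, and ranged from -0.11 to 0.036 with 1 library left out, the Col4a1 start peak from -0.10 to 0.17 and the Lama1 end peak from -0.76 to 0.25. None of these values passed the test.

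With replicate number as a block, 1 member was higher and 6 lower in DE (Col4a2 added, at -1.35, edgeR adjusted p 0.0043), the same counts as in the same libraries unblocked, and 31 peaks rose and 17 fell. Libraries with the same number correlated at 0.0749 to 0.323 in RNA and 0.0332 to 0.0670 in ATAC, each best with its own number, so the numbers are a hint from the data, not a pairing. Depth limits peaks of few counts.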
